A study of Mus musculus with 2 samples.

Results

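Adipocyte-marked cells of mouse skin are the subject here: segmented cells with a summed count of at least 3 transcripts of Pparg, Ptger3 and Cd1d1. Cells also had to have at least 20 transcripts in all, none of Fa2h and Cers4, which mark sebocytes, and fewer than 3 of Krt5, Krt15 and Col17a1, which mark basal keratinocytes. The rule chose 786 of 70658 cells with at least 20 transcripts (kept cells below): 513 of 33263 in the WT section and 273 of 37395 in the Utx-cKO section. Each section was 5 µm thick, from formalin-fixed, paraffin-embedded whole skin of untreated female B6/129 mice, probed in situ on the Xenium platform for 480 genes. In Utx-cKO mice Krt14-Cre had deleted Kdm6a, also called Utx, a histone demethylase gene; Krt14 is active in keratinocytes, so adipocytes are not the cells in which this driver acts. The labels give no age and do not say whether the WT mice carried a floxed allele or the Cre. Each section held 4 separate strips of tissue, numbered here by position, and which animal each came from is not given. With 1 section per genotype no difference between genotypes can be tested: intervals below are exact 95% intervals that cover counting error alone, and strips are not counted as replicates.

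Adipocytes store triglyceride in a lipid droplet that fills the cell and pushes the nucleus to its edge. Pparg encodes PPARγ, the nuclear receptor that drives adipocyte differentiation and binds DNA with a retinoid X receptor partner at direct repeats of a short motif. Dermal adipocytes form a layer under the reticular dermis and around the lower ends of hair follicles, and the layer thickens and thins with the hair cycle. Ptger3 encodes the prostaglandin E2 receptor EP3, which restrains lipolysis in adipocytes, and Cd1d1 encodes a molecule that presents lipids to natural killer T cells. Pparg is also active in sebocytes, and the rule therefore removes cells with sebocyte transcripts.

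The chosen cells held 53353 transcripts in WT and 23439 in Utx-cKO. They were deeper than the other kept cells, with a median of 95 against 62 transcripts per cell in WT and 80 against 48 in Utx-cKO. They were also larger: the median segmented area was 169 µm² against 94.1 µm² in WT and 151 µm² against 90.0 µm² in Utx-cKO, and the median nucleus area was 29.9 against 19.1 µm² and 27.3 against 19.8 µm². A deeper cell reaches a count of 3 more easily, so depth and area bear on which cells were chosen. Negative control probes gave 4 and 1 counts in the chosen cells of WT and Utx-cKO. Cell identifiers shared by the sections numbered 2. Levels below are CPM, the counts of a gene over a set of cells scaled to 1000000 panel transcripts of those cells. Probes differ in how well they capture their target, so levels are compared between cells and not between genes.

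Of the markers that chose the cells, Pparg was found in 471 of 513 cells in WT (91.8%) and 249 of 273 in Utx-cKO (91.2%). Cd1d1 was found in 406 (79.1%) and 167 (61.2%), and Ptger3 in 244 (47.6%) and 111 (40.7%). All 3 were present in 160 WT cells (31.2%) and 45 Utx-cKO cells (16.5%), while Pparg was the sole marker in 44 (8.58%) and 52 (19.0%). The summed marker count had a median of 4 in both sections and reached 27 in WT and 11 in Utx-cKO. Cells just inside the rule, with a sum of 3, numbered 189 in WT and 128 in Utx-cKO, and those with 5 or more numbered 229 (44.6%) and 90 (33.0%). These values follow from the rule and describe the chosen set.

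The label was checked against adipocyte markers that the rule did not use. Of 24 adipocyte markers listed, 5 were on the panel, and 2 of these, Acsl1 and Scd1, were outside the rule. Both were higher in the chosen cells than in the other kept cells of each section. Acsl1, the acyl-CoA synthetase that activates long-chain fatty acids in fat cells, stood at 55405 CPM (53425 to 57439) in chosen WT cells and 6564 CPM in the others. In Utx-cKO it stood at 41640 CPM (39068 to 44336) against 4626 CPM. Scd1, which desaturates fatty acyl chains, stood at 83819 CPM (81380 to 86312) against 11922 CPM in WT and 62332 CPM (59176 to 65612) against 14550 CPM in Utx-cKO. Both genes are also in the list of sebocyte markers. Scd1 does not by itself separate the chosen cells from sebocytes, while Acsl1 was far lower in the sebocyte-marked cells described below. Genes that define adipocytes most sharply, such as Adipoq, Plin1 and Fabp4, were not on the panel, so the name rests on few markers.

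Acsl1 also changed with the marker sum across the threshold. In WT its level was 11416 CPM in cells with a sum of 1, 24850 CPM in the 419 cells with a sum of 2, just outside the rule, 40964 CPM at a sum of 3, 52958 CPM at 4 and 66280 CPM at 5 or more. In Utx-cKO the same steps were 7966, 21395 (280 cells), 32727, 42358 and 51450 CPM. No gap separated cells inside and outside the threshold, and the chosen set is the upper end of a gradient. Chosen cells with Pparg alone had less Acsl1, 24407 CPM in WT and 22486 CPM in Utx-cKO, than cells with all 3 markers, at 59406 and 45307 CPM. The sebocyte gene Cidea went the other way, at 3438 and 3066 CPM in Pparg-alone cells and 183 and 232 CPM in cells with all 3. These Cidea values rest on 20 and 15 counts against 3 and 1, and Cidea was found in 10 WT and 9 Utx-cKO chosen cells in all, with 84.8% and 80% of its counts in the top 5. Elovl5, a fatty acid elongase gene, was at 15469 and 4702 CPM in Pparg-alone cells and 1589 and 1626 CPM with all 3. The top 5 chosen cells held 52.9% and 37.5% of Elovl5 counts. Elovl6 was at 4641 and 4088 CPM against 1834 and 697 CPM. The adipocyte name thus rests on less in Pparg-alone cells, which were 8.58% of chosen cells in WT and 19.0% in Utx-cKO.

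Over the whole panel, 137 genes had at least 100 counts in the chosen cells of both sections together, with the rule's genes left out. Of these, 21 (15.3%) were at least 2 times higher in the chosen cells than in the other kept cells in both sections, and 15 (10.9%) were at least 2 times lower in both. The median gene had a smaller log2 fold of -0.04. The 15 leading genes, ranked by the smaller of their folds in WT and Utx-cKO, made up 32.4% of all transcripts of the chosen cells in WT and 31.9% in Utx-cKO, against 4.93% and 4.78% in the other kept cells. In the median chosen cell they made up 35.5% and 33.3%. The 95th percentile of the other kept cells, with sebocyte-marked cells (defined below) left out, was 17.9% in WT and 13.4% in Utx-cKO. Above it lay 434 of the 513 WT cells (84.6%) and 236 of the 273 Utx-cKO cells (86.4%). The medians of the sebocyte-marked cells were 18.2% and 18.3%. The 15 genes were ranked by their excess in these same chosen cells, so a high share follows from that choice. The percentage by strip ran from 28.6% to 43.3% in WT and from 18.1% to 35.8% in Utx-cKO, lowest in Utx-cKO strip 1, which held 23 chosen cells.

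Of the 10 compared genes of the list of lipid storage and fatty acid synthesis, 5 were at least 2 times higher in both sections (Scd1, Fasn, Acsl1, Agpat2 and Dbi) and 1 lower (Elovl4). Fasn, the fatty acid synthase, reached 46876 CPM (45057 to 48750) in the WT cells and 63996 CPM (60798 to 67318) in the Utx-cKO cells, 9.89 and 12.05 times the other cells. Agpat2, which adds the second acyl chain on the way to triglyceride, reached 12502 and 11690 CPM, 11.2 and 10.6 times the others. Dbi, the acyl-CoA binding protein, reached 21630 and 20735 CPM, 8.15 and 9.54 times the others. Cpt2, of the mitochondrial import of fatty acids for oxidation, is not in that list and was 3.95 and 4.26 times higher.

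The remaining leading genes belong to no list fixed here. Insig1, which holds the sterol sensor complex in the endoplasmic reticulum, was 5.11 and 4.75 times higher, and Sc5d, of cholesterol synthesis, 3.95 and 2.49 times. Aifm2, which regenerates ubiquinol in membranes and protects them from lipid peroxidation, had the largest smaller fold of all 137 genes, at 5904 CPM (5270 to 6593) in the WT cells and 6144 CPM (5181 to 7233) in the Utx-cKO cells, 11.1 and 15.5 times the others. Gpx4, which reduces lipid hydroperoxides, was 3.15 and 2.78 times higher, and Gpx1 2.33 and 3.33 times. Cat, the catalase of peroxisomes, was 5.24 and 7.55 times higher at 45115 and 58194 CPM. Sod1, the cytosolic superoxide dismutase, was 2.68 times higher in WT and 6.08 times in Utx-cKO. Not all genes of this kind were called: Sod2, Sod3 and Prdx5 were 1.42 and 1.65, 1.89 and 2.28, and 0.965 and 0.811 times the others. The leading genes also held Rgcc, a regulator of the cell cycle, Itga7, a laminin-binding integrin subunit, and Psat1, of serine synthesis, at 9.75 and 8.09, 5.80 and 6.52, and 3.90 and 5.69 times the others. Past the 15, Apcdd1, Cers2, Eno1b, Irf4 and Plod3 were at least 2 times higher in both sections. Among the 15 lower genes were Thy1, Apod, Fn1, Axl, Tgfbi, Cdsn, Sbsn and Ly6g6c. Of the 10 compared preadipocyte and fibroblast genes 2 were lower, Fn1 and Axl, and of the 5 compared fibroblast markers none was at least 2 times lower in both sections.

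**Figure D1:**
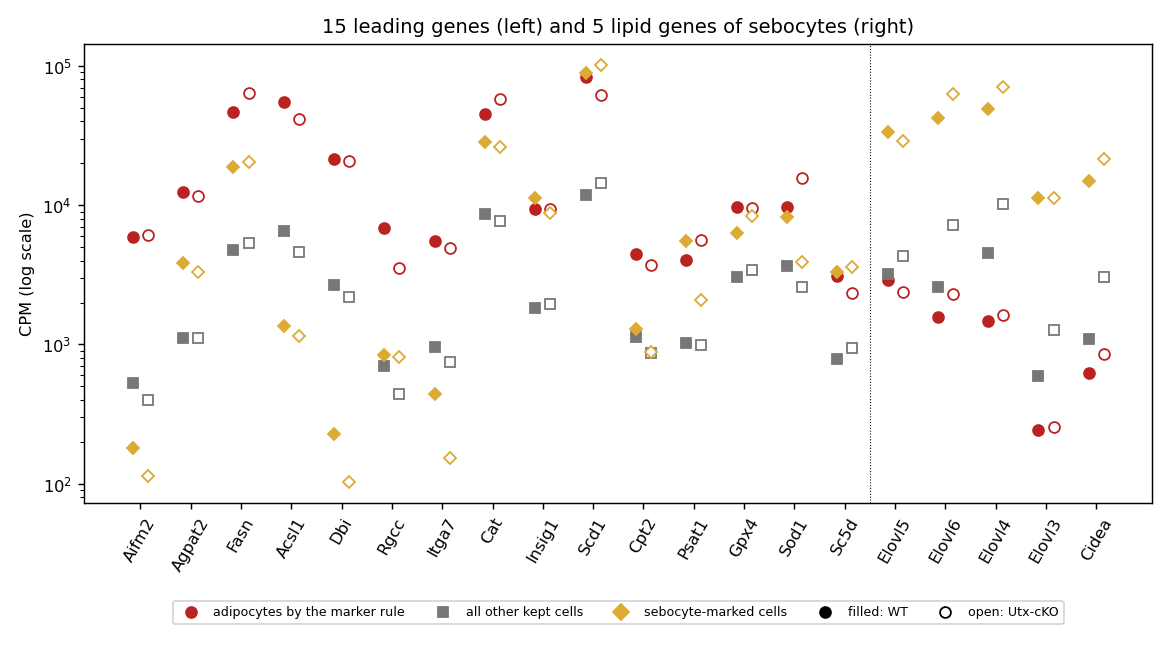
Levels (CPM, log axis) of the 15 leading genes and of 5 lipid genes of sebocytes in adipocytes by the marker rule (circles), all other kept cells (squares) and sebocyte-marked cells (diamonds), filled for WT and open for Utx-cKO. Aifm2, Dbi and Acsl1 lie far above both other sets in the marked adipocytes, Scd1 is close to its sebocyte level in WT, and Elovl3 to Elovl6 and Cidea are highest in the sebocyte-marked cells.

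Since PPARγ binds DNA at repeats of the motif AGGTCA, the promoters of the leading genes were searched for it on both strands, in the 250 bases before the start of each gene in RefSeq's GRCm38.p6 table; 13 of the 15 matched an entry, and Itga7 and Scd1 did not. The repeat spaced by 1 base, AGGTCANAGGTCA, was in none of the 13 and in 11 of 27025 promoters (0.0407%). The single motif, which every full repeat contains, was in 4 of the 13 (Aifm2, Cat, Insig1 and Gpx4) and in 4260 of all promoters (15.8%). The Aifm2 window, chr10:61720399-61720648 on the plus strand, is shown because this gene had the largest smaller fold and holds the motif at 2 places, starting 212 and 34 bases before the start. The Cat window, chr2:103485154-103485403 on the minus strand, holds it once, 204 bases before the start. Capitals mark the motif.
Aifm2: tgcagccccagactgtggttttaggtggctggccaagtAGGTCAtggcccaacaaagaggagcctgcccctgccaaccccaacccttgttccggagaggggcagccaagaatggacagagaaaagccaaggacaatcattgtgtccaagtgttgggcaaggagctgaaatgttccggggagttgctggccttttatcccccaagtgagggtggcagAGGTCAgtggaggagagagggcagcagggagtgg
Cat: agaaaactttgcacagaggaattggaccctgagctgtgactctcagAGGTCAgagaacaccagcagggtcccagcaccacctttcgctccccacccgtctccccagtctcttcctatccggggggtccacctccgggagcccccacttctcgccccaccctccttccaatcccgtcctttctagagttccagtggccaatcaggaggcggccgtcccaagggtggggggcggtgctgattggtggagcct
A match of these letters is a description of the window, and binding was not measured.

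Sebocytes are the other lipid-filled cells of skin, and the chosen cells differed from them in which lipid genes were high. Sebocyte-marked cells, with at least 3 transcripts of Fa2h and Cers4, numbered 570 in WT and 1267 in Utx-cKO. Of the 137 genes, 75 (54.7%) were at least 2 times higher in the adipocyte-marked cells in both sections and 9 (6.57%) at least 2 times lower. The 137 genes were selected for counts in the adipocyte-marked cells alone, so genes high in sebocytes and low here, such as Cidea, could not enter, and nothing is read from this split. Dbi was at 227 and 103 CPM in sebocyte-marked cells, 95.3 and 202 times below the adipocyte-marked cells, Aifm2 33.0 and 53.8 times below and Acsl1 40.7 and 36.0 times below. Fatty acid elongases went the other way: Elovl4 was 33.8 and 43.4 times higher in sebocyte-marked cells and Elovl5 11.5 and 12.1 times. Cidea, a lipid droplet protein gene, was 24.1 and 25.2 times higher there. Scd1 was 1.06 times higher in sebocyte-marked cells in WT, which is close, and 1.64 times higher in Utx-cKO. Insig1 was 1.19 times higher there in WT and 1.06 times lower in Utx-cKO. Absence of Fa2h and Cers4 is part of the rule, so a gene that tracks those transcripts is low in the chosen cells partly by that choice.

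Transcripts in the marker lists of other cell types were also present in the chosen cells. The 5 sebocyte markers outside the rule summed to 141660 CPM in WT and 107385 CPM in Utx-cKO, against 22766 and 30758 CPM in other kept cells. Of these, Scd1 and Acsl1, which are also in the adipocyte list, made up 139224 CPM in WT and 103972 CPM in Utx-cKO. Both were at least 2 times higher in the chosen cells of both sections, while Elovl6, Elovl3 and Cidea were lower than in other kept cells. The 8 fibroblast markers on the panel summed to 20580 CPM in WT and 21332 CPM in Utx-cKO, against 43958 and 37543 CPM in other kept cells. Suprabasal and granular keratinocyte markers summed to 3111 and 3925 CPM against 40926 and 44868 CPM. Macrophage markers summed to 5567 and 3413 CPM against 8477 and 6277 CPM, and T and NK markers to 2193 and 3242 CPM against 7613 and 6693 CPM. Basal keratinocyte markers outside the rule summed to 14845 and 14335 CPM against 22310 and 19531 CPM, and pericyte and smooth muscle markers to 4311 and 3754 CPM against 5857 and 5909 CPM. Melanocyte, mast, lymphatic, dendritic and Schwann cell markers each summed to at most 1856 CPM in WT and 2133 CPM in Utx-cKO. Blood endothelium markers stood above the other cells, at 8041 and 7082 CPM against 5293 and 4628 CPM. The B cell marker on the panel, Cd79a, was at 0 in both, which allows up to 56.2 CPM in WT and 128 CPM in Utx-cKO by a limit of 3 counts. Of the chosen cells, 51 in WT (9.94%) and 19 in Utx-cKO (6.96%) also carried at least 3 endothelial marker transcripts. Of other kept cells within the chosen cells' quartiles of distance to the epithelium, 10.6% and 7.77% did. Chosen cells of all depths were counted, so the contrast is not matched for depth. For fibroblast markers the numbers were 110 (21.4%) and 52 (19.0%), against 47.6% and 33.5%.

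The distance of the chosen cells from the epithelium was measured next. Their median distance to the nearest cell with at least 3 basal keratinocyte transcripts was 78.6 µm in WT (quartiles 52.0 and 124 µm) and 67.6 µm in Utx-cKO (44.7 and 95.5 µm), against 41.8 and 32.6 µm for the other kept cells outside the basal layer. They made up the largest percentage of non-basal kept cells at 50 to 75 µm in WT (6.13%) and at 75 to 100 µm in Utx-cKO (3.46%). Nearer than 25 µm they were 0.363% and 0.163%. The depth varied among strips: the medians were 82.1, 77.6, 46.2 and 141 µm in WT and 92.0, 106, 50.5 and 88.4 µm in Utx-cKO. For the other kept cells outside the basal layer the strip medians were 85.9, 32.5, 25.5 and 53.4 µm in WT and 27.4, 52.8, 23.1 and 50.7 µm in Utx-cKO. By the median, the chosen cells were thus farther from the epithelium than the others in every strip but WT strip 1. The upper quartiles were close, at 124 µm against 123 µm for the others in WT and 95.5 µm against 99.4 µm in Utx-cKO. The others include cells of the epithelium above the basal layer, so the medians do not set the chosen cells against dermal cells alone.

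Chosen cells also lay near each other. Another chosen cell was within 30 µm of 39.8% of them in WT and 48.7% in Utx-cKO, against 7.54% and 5.38% of other kept cells. Those other cells were taken at all depths, and what shared depth adds to this contrast was not tested. The median distance from a chosen cell to the nearest other chosen cell was 37.5 and 30.6 µm. By strip the percentages were 40.4, 31.3, 50.9 and 36.5% in WT and 21.7, 16, 72.8 and 32.1% in Utx-cKO, and without Utx-cKO strip 3 that section's value was 20.6%, below WT. Only 5 cells in WT and 4 in Utx-cKO were within 20 µm of a sebocyte-marked cell. An endothelium-marked cell was within 30 µm of 47.6% of chosen cells in WT and 62.3% in Utx-cKO. For other cells within the chosen cells' quartiles of depth the values were 42.9% and 41.2%. A fibroblast-marked cell was within that range of 69.4% of chosen cells in WT, below the 85.4% of those other cells. In Utx-cKO the value was 87.5%, above their 82.2%. The neighbourhood of fibroblasts thus had opposite directions in the sections. Chosen cells of all depths were counted, so these contrasts are not matched for depth.

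**Figure D2:**
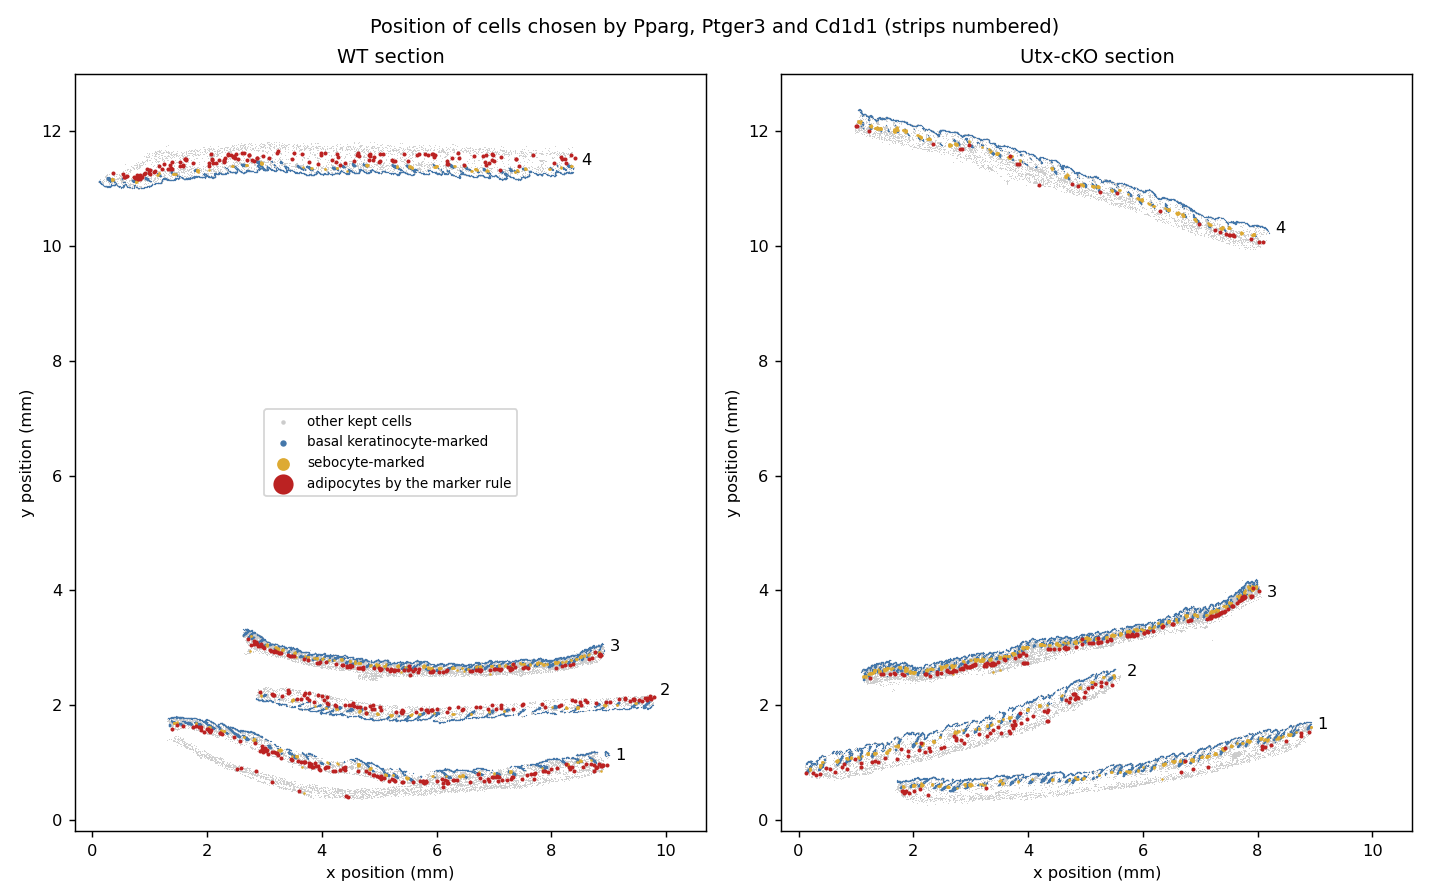
Position (mm) of kept cells in the WT and Utx-cKO sections, with adipocytes by the marker rule in red, sebocyte-marked cells in yellow, basal keratinocyte-marked cells in blue and other kept cells in grey; numbers name the strips. The red cells form a band beside the blue epithelium in each strip, sparse in Utx-cKO strips 1 and 4 (23 and 28 cells).

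Expression varied with distance from the epithelium. In Utx-cKO, Acsl1 was 31031 CPM in the 88 chosen cells under 50 µm, 41924 CPM in the 124 cells at 50 to 100 µm and 64477 CPM in the 61 cells at 100 µm or more. In WT it was 52628 CPM in 120 cells, 60120 CPM in 207 cells and 52228 CPM in 186 cells, with no such rise. Agpat2 was at 8542 CPM in the nearest WT cells and 13164 CPM in the farthest, and at 8443 and 16058 CPM in those of Utx-cKO. Dbi was likewise lower in the nearest cells, at 15564 against 22916 CPM in WT and 14254 against 31387 CPM in Utx-cKO. Cat was higher in the nearest cells, at 53062 against 36719 CPM in WT and 67105 against 37713 CPM in Utx-cKO. Igfbp3, which binds insulin-like growth factors, was higher there too, at 17446 against 3944 CPM and 16228 against 8273 CPM. The nearest cells were also the smallest, with median areas of 157 µm² in WT and 125 µm² in Utx-cKO against 178 and 183 µm² in the farthest, and the bins draw on different strips. What area and strip contribute was not tested.

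Strip 3 of each section stood apart in a like manner. Its chosen cells were the nearest to the epithelium of each section, at 46.2 and 50.5 µm, and the smallest, at 146 and 132 µm². Igfbp3 was 22313 CPM in WT strip 3 and 1649 to 4686 CPM in the other WT strips. In Utx-cKO it was 19627 CPM in strip 3, 22314 CPM in strip 4 and 837 to 1248 CPM in strips 1 and 2. Cat was highest in strip 3 of each section, at 59589 and 70711 CPM. Strip 2 of each section was the highest in Agpat2, at 21920 and 19050 CPM, in Dbi, at 30386 and 34540 CPM, and in Scd1, at 132124 and 70965 CPM. Differences among strips of 1 section were thus as large as several differences between sections.

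The chosen cells were less frequent in the Utx-cKO section. They were 1.54% of kept cells in WT (1.41 to 1.68%) and 0.730% in Utx-cKO (0.646 to 0.822%), a ratio of 0.473. By strip the WT values were 1.61, 1.95, 1.03 and 1.88%, and the Utx-cKO values 0.244, 1.11, 1.07 and 0.373%. The strips overlapped: Utx-cKO strips 2 and 3 lay above WT strip 3, and Utx-cKO strips 1 and 4 lay below every WT strip. Per mm of tissue length there were 17.4, 13.7, 17.1 and 16.8 chosen cells in the WT strips and 3.03, 12.2, 20.5 and 3.38 in the Utx-cKO strips, with 20.5 in Utx-cKO strip 3 the highest of all 8. Over whole sections the values were 16.3 per mm over 31.4 mm and 9.36 per mm over 29.2 mm.

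Depth and segmentation differed between the sections beside this frequency. Other kept cells had a median of 62 transcripts in WT and 48 in Utx-cKO. With every kept cell thinned at random to 20 transcripts and the rule applied to those, 67 WT cells (0.201%, 0.156 to 0.256%) and 36 Utx-cKO cells (0.0963%, 0.0674 to 0.133%) were left. At a minimum of 2 marker transcripts, 251 WT cells (0.755%) and 155 Utx-cKO cells (0.414%) were left. At a minimum of 1 the values were nearer, 4.28% and 3.64%. A rule of at least 5 marker transcripts on the full counts gave a ratio of 0.350. Without Utx-cKO strip 3 the ratio was 0.345, and without Utx-cKO strip 1 it was 0.580. In a section, fewer adipocytes and less RNA in each cannot be told apart by such counts.

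**Figure D3:**
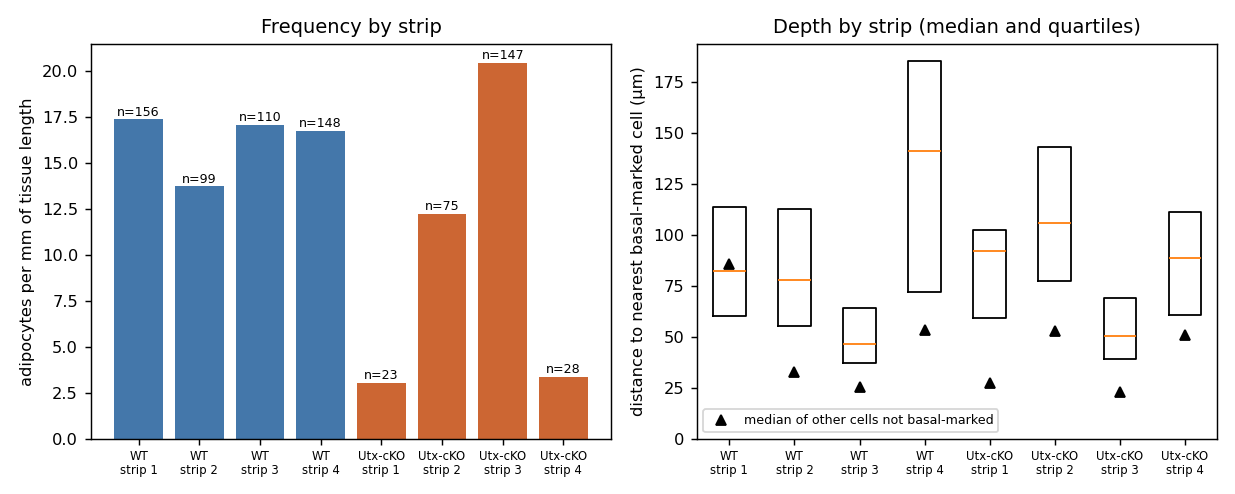
Left, number of adipocytes by the marker rule per mm of tissue length in each strip of WT and Utx-cKO, with the number of cells above each bar. Right, their distance (µm) to the nearest basal keratinocyte-marked cell as median and quartiles, with triangles for the median of other kept cells that are not basal-marked; Utx-cKO strips 1 and 4 have 3.03 and 3.38 cells per mm, and strip 3 of each section has the shortest distances.

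Transcripts of adipocyte genes were often outside segmented cells, which bears on these counts. Of all panel transcripts, 25.3% lay outside cells in WT and 15.1% in Utx-cKO. For Scd1 the values were 62.4% and 29.1%, for Dbi 59.3% and 41.6%, for Fasn 57.4% and 35.9% and for Acsl1 44.9% and 28.6%. The markers of the rule were also above the panel in WT, at 43.5% for Ptger3, 40.2% for Cd1d1 and 34.1% for Pparg. In Utx-cKO they were at 20.9, 18.6 and 13.7%, so Ptger3 and Cd1d1 were above the panel there and Pparg below it. So the section with more chosen cells had also more of their genes' transcripts outside cells. Counted inside and outside together, per mm of tissue, there were 122 Cd1d1 transcripts in WT and 56.2 in Utx-cKO, 77.3 and 46.2 of Ptger3, 1137 and 572 of Acsl1, 2993 and 1697 of Scd1, and 193 and 161 of Pparg. For all panel transcripts the values were 112591 and 98554 per mm. Without regard to segmentation, these genes were thus fewer per mm in the Utx-cKO section, Pparg by little. Sebocyte-marked cells, which also express Pparg and Scd1, were 18.1 per mm in WT and 43.4 per mm in Utx-cKO. The sections also held unlike amounts of deep tissue. At 300 µm or more from a basal-marked cell lay 1902 non-basal kept cells in WT and 75 in Utx-cKO. Of all outside transcripts, 21.2% in WT and 1.72% in Utx-cKO lay there. What this adds to the percentages outside cells, the values per mm and the shares of kept cells was not tested.

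**Figure D4:**
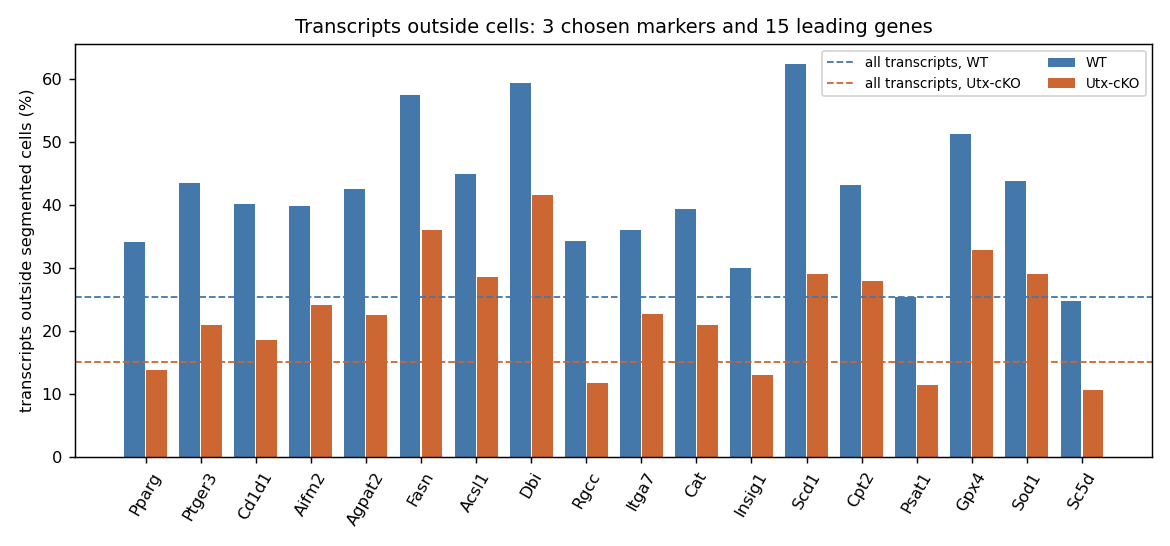
Percentage of the transcripts of each gene that lay outside segmented cells, for the 3 markers of the rule and the 15 leading genes, in WT (blue) and Utx-cKO (orange), with dashed lines at 25.3% and 15.1% for all panel transcripts. Scd1, Dbi and Fasn have the highest bars in WT, at 62.4, 59.3 and 57.4%.

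The question put to the chosen cells was whether their expression differs between the genotypes when the deletion is driven in keratinocytes. Kdm6a itself was at 2868 CPM (2431 to 3360, 153 counts) in chosen WT cells. In Utx-cKO it was at 2432 CPM (1842 to 3151, 57 counts), for a log2 ratio of -0.24 (-0.70 to 0.21). In basal keratinocyte-marked cells, where the driver acts, it was at 2942 and 2567 CPM. Which part of the transcript the probes bind and which part is deleted are not given, so this level does not check the deletion. Of the 137 genes, 9 (6.57%) were at least 1.5 times higher in chosen Utx-cKO cells and 14 (10.2%) at least 1.5 times lower, and the median log2 ratio of all 137 was 0.01. Counted as mean transcripts per cell instead, which does not correct for the lower depth of the Utx-cKO cells, the median moved to -0.27 and the split to 3 higher and 30 lower. No gene was higher in all 4 Utx-cKO strips than in all 4 WT strips (0% of 137), and 5 (3.65%) were lower in all: Cryab, Igfbp5, Pcdh7, Kdm1a and Kmt2c. Several of these rest on few counts. Utx-cKO strips 1 and 4 held 2 and 1 counts of Kdm1a, 2 and 1 of Pcdh7 and 3 and 2 of Kmt2c. The margins were small too, with Kdm1a at 1718 CPM in Utx-cKO strip 3 and 1732 CPM in WT strip 4.

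Among the lipid genes that led the chosen cells, none was 1.5 times apart and the differences had no single direction. Fasn had a log2 ratio of 0.45 (0.36 to 0.54). Outside the lipid list, Cat had 0.37 (0.27 to 0.46) and Psat1 0.48 (0.16 to 0.80). Scd1 had -0.43 (-0.51 to -0.34) and Acsl1 -0.41 (-0.52 to -0.31). By strip, Fasn was 57386, 90098, 35714 and 20778 CPM in WT and 11853, 68872, 70711 and 42553 CPM in Utx-cKO. Scd1 was 76151, 132124, 54645 and 106613 CPM in WT and 24329, 70965, 62847 and 68500 CPM in Utx-cKO. Acsl1 was 50681, 55329, 62842 and 53512 CPM in WT and 44292, 66360, 34166 and 36845 CPM in Utx-cKO, and without Utx-cKO strip 3 its log2 ratio was -0.0039. All 3 genes overlapped between the strips of the sections. Agpat2, Dbi, Aifm2 and Insig1 had log2 ratios of -0.10, -0.06, 0.06 and -0.01, each with an interval across 0. Of the 42 listed genes of lipid storage and fatty acid synthesis, 15 were on the panel and 10 were among the 137. Of these, 1 (Elovl7) was at least 1.5 times higher and none lower, with a median of 0.04.

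Tfrc, the transferrin receptor through which cells take up iron, was higher in the Utx-cKO cells. It was at 1499 CPM (1189 to 1866) in the WT cells and 3626 CPM (2897 to 4484) in the Utx-cKO cells. The log2 ratio was 1.27 (0.82 to 1.73), against 0.23 in other kept cells. It was found in 66 of 513 WT cells and 72 of 273 Utx-cKO cells, and the top 5 cells held 15% and 15.3% of its counts. By strip it was 1559, 3779, 1106 and 660 CPM in WT and 1871, 6280, 3172 and 2076 CPM in Utx-cKO. WT strip 2 thus lay above 3 of the 4 Utx-cKO strips. Sod1, found in 277 and 165 cells with 5.57% and 8.20% of its counts in the top 5, had a log2 ratio of 0.68 (0.48 to 0.87), against -0.50 in other kept cells. Its strips were at 10656, 7559, 10929 and 8080 CPM in WT and 7486, 7327, 18768 and 18163 CPM in Utx-cKO, and it fell below 1.5-fold without Utx-cKO strip 3.

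The other higher genes rested on few cells or fell below 1.5-fold with a strip left out. Elovl7, a fatty acid elongase, had the largest log2 ratio, 1.69 (1.18 to 2.20), but was found in 11 WT and 13 Utx-cKO cells, and the top 5 cells held 89.7% and 85.4% of its counts. Tmem45a (1.21) was in 22 and 16 cells, with 77.3% and 84.2% in the top 5. For Cers5 (0.70), a ceramide synthase, the top 5 cells held 39.0% and 59.9%, and for Anxa8 (0.75), an annexin, 52.6% and 42.9%. Anxa8 was at 43925 and 34913 CPM in basal-marked cells and Tmem45a at 7879 and 6992 CPM, and the part of keratinocyte transcripts in these ratios was not tested. Igfbp3 (0.72) turned to -0.61 without Utx-cKO strip 3. Rassf8 (0.74) and Mmp2 (0.59), a matrix metalloproteinase gene, also fell below 1.5-fold without that strip. Rassf8 did so without WT strip 3 as well, and Mmp2 in 11 of 20 alternatives. Without Utx-cKO strip 3, 1 of the 9 had both the 100 counts and the 1.5-fold ratio.

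Cryab, which encodes the small heat shock protein αB-crystallin, was the lowest in Utx-cKO. It was at 2736 CPM (2311 to 3218) in the WT cells and 725 CPM (423 to 1161) in the Utx-cKO cells. The log2 ratio was -1.92 (-2.73 to -1.19), on 146 and 17 counts. By strip it was 2807, 1663, 2277 and 3793 CPM in WT and 1248, 1256, 595 and 0 CPM in Utx-cKO, with no overlap. The 0 is among 1927 transcripts and allows up to 1557 CPM. The top 5 cells held 26.7% and 35.3% of Cryab counts. Under 50, at 50 to 100 and at 100 µm or more from the epithelium, Cryab was 1448, 1781 and 4743 CPM in WT. In Utx-cKO it was 658, 588 and 1217 CPM. The intervals of the sections overlapped in the nearer bins and not in the farthest. That bin held 186 WT and 61 Utx-cKO cells, and what depth adds to the ratio was not tested. Cryab was also lower in the other kept cells of Utx-cKO, at a log2 ratio of -0.86, and it is the panel's marker of skeletal muscle. Thbs2, which encodes the matrix protein thrombospondin-2, had -1.17 (-1.66 to -0.70), against -0.18 in other kept cells, and was found in 144 WT and 34 Utx-cKO cells. Its strips were at 2599, 1965, 7351 and 4453 CPM in WT and 3119, 1465, 1983 and 1557 CPM in Utx-cKO, which overlapped. Igfbp5, another insulin-like growth factor binding protein gene, had -0.98 (-1.28 to -0.69), with strips at 11592, 9070, 6245 and 13935 CPM in WT and 5614, 5861, 5353 and 2076 CPM in Utx-cKO. Pcdh7, a protocadherin gene, had -1.06 against 0.01 in other kept cells, on 95 and 20 counts. At a marker sum of at least 2, the log2 ratio of Igfbp5 was -0.43. Pcdh7 also fell below 1.5-fold in that setting and in cells thinned to 20 transcripts.

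The blood endothelium markers were not lower by the 1.5-fold rule: none of the 3 compared (Cdh5, Flt1 and Aqp1) passed it, and their sum with Vwf had a log2 ratio of -0.18 (-0.45 to 0.08). Ramp2, outside that list, which with its receptor partner binds adrenomedullin in endothelium, had -1.54 (-2.29 to -0.85) on 132 and 20 counts, and Mef2c, a transcription factor gene, -1.21 on 105 and 20 counts. Ramp2 was at -0.50 in cells thinned to 20 transcripts, and Mef2c at -0.46 at a marker sum of at least 2. Rgcc, among the leading genes of the chosen cells, had -0.95 (-1.31 to -0.60), against -0.68 in other kept cells. It was at 13358 CPM in WT strip 4 and 4233 to 5074 CPM in the other WT strips, and it fell below 1.5-fold without WT strip 4. C1qa, a complement gene of macrophages, had -0.91 and turned to 0.051 without WT strip 1, which stood at 6290 CPM against 1361 to 1887 CPM in the other WT strips. The summed macrophage markers had a log2 ratio of -0.71 (-1.08 to -0.35), with the lowest and highest strips at 2721 and 9564 CPM in WT and at 1248 and 6746 CPM in Utx-cKO. What cells beside or under the chosen cells add to these genes was not tested.

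The remaining lower genes were Anxa1 (-1.04), Klf4 (-0.97), Tm4sf1 (-0.83), Aspn (-0.74), Col6a3 (-0.66) and Col6a1 (-0.61). Anxa1, an annexin gene, was 15501 CPM in WT strip 4 and 2963 to 4294 CPM in the other WT strips, and its log2 ratio was -0.21 without strip 4. Aspn, a small matrix proteoglycan gene, turned to 0.43 without WT strip 3. Tm4sf1 fell below 1.5-fold when strip 1 of WT, or strip 2 or 3 of Utx-cKO, was left out. Klf4 was found in 75 WT and 22 Utx-cKO cells. Its strips overlapped, at 2859, 454, 3253 and 989 CPM in WT and 1248, 419, 1190 and 2595 CPM in Utx-cKO. In basal-marked cells Klf4 was at 8323 and 6902 CPM and Anxa1 at 13825 and 10865 CPM. The part of keratinocyte transcripts in the ratios of Klf4 and Anxa1 was not tested. Col6a1 and Col6a3 encode chains of collagen VI, which surrounds adipocytes. Col6a1 was at 7816 CPM in WT and 5120 CPM in Utx-cKO, and Col6a3 at 5867 and 3712 CPM. Col6a2, of the same collagen, was not called lower. Its strips were at 9616, 7407, 16979 and 10966 CPM in WT and 4367, 6071, 9186 and 8822 CPM in Utx-cKO. The strips of Col6a1, Col6a2 and Col6a3 overlapped between the sections.

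**Figure D5:**
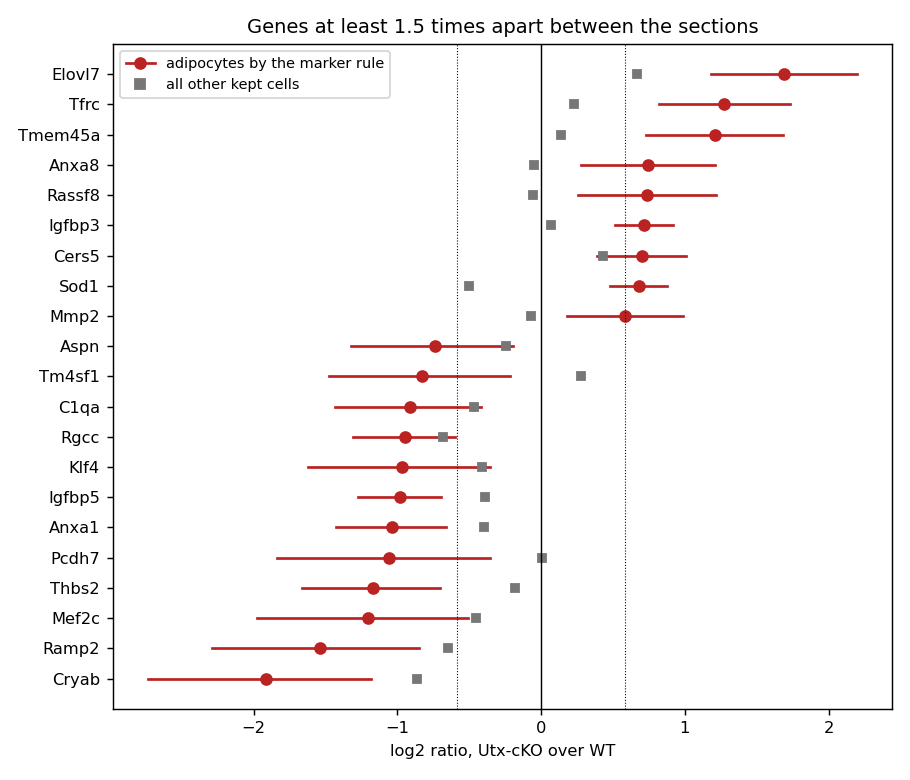
Log2 ratio of Utx-cKO over WT in adipocytes by the marker rule (red, with 95% intervals for counting error) for the named genes at least 1.5 times apart, and the ratio of the same genes in all other kept cells (grey squares); dotted lines mark 1.5-fold. Elovl7 and Tfrc lie highest at 1.69 and 1.27, and Cryab lowest at -1.92.

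The other lists were described in the same way. Of 26 preadipocyte and fibroblast genes, 14 were on the panel and 10 among the 137. Igfbp3 and Mmp2 were at least 1.5 times higher and Aspn lower, with a median of 0.17. Of 11 angiogenic and hypoxia genes, 8 were on the panel and 7 among the 137. Cryab was lower and none higher, with a median of -0.13, and Ldha and Pkm of glycolysis had log2 ratios of -0.10 and -0.13. Of 21 PPAR, C/EBP and adipokine genes, 3 were on the panel outside the rule and only Klf4, a transcription factor gene, had the counts to be compared. Of 19 prostaglandin genes, 6 were on the panel outside the rule and none reached 100 counts. They summed to 57 counts in WT and 36 in Utx-cKO, too few to compare by gene.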

How the data were processed

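Per the labels, 5 µm sections of skin were probed in situ for 480 genes and negative controls, and each decoded transcript was deposited with its position, cell and quality score, with counts and areas per cell. The authors' decoding and segmentation software was not given in the sources used here. The deposited counts per cell equalled the gene transcripts of quality score at least 20, with 0 cells differing. From the deposited scores, transcripts of at least 20 were counted per cell. Cells of at least 20 transcripts were kept, and no doublet caller was run.

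The members and gene lists were chosen with earlier results of these data known. Counts were summed over cells, scaled to 1000000 (CPM) and compared as log2 ratios, for genes of at least 100 counts, with Python 3.11.15, numpy 2.4.6, scipy 1.17.1 and pandas 2.3.3. A gene was called at 1.5-fold between sections, or at 2-fold over other cells in both sections. Named are the 15 leading genes over other cells, up to 12 genes in each direction between sections, Kdm6a, the markers and the listed genes. Some were named after their values were seen: Col6a3 and Col6a1, past the 12 lowest, with Col6a2 beside them, and Kdm1a and Kmt2c, whose strips did not overlap. Intervals are Poisson, Clopper-Pearson or conditional binomial, exact, at 95%. The calculation was tested on simulated data. A strip is a set of at least 1000 cells linked at 100 µm. A class-marked cell has at least 3 transcripts of the class's markers. Alternatives were quality, depth and marker thresholds, nuclear counts, thinning, scaling, count minimum, proximity to sebocytes, each strip left out and, added after the data were seen, transcripts outside cells given to the nearest kept cell within 20 µm and the rule on thinned cells.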

Additional observations from a re-analysis of the deposited data

Results flagged for a closer look

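Transcripts that lie outside segmented cells enter none of the levels per cell, and 3 of the leading genes had the highest percentages there in WT. Of Scd1 transcripts, 62.4% were outside cells in WT and 29.1% in Utx-cKO, of Dbi 59.3% and 41.6%, and of Fasn 57.4% and 35.9%, against 25.3% and 15.1% of all panel transcripts. A chosen cell was the nearest kept cell of 13.3% and 7.29% of the outside Scd1 transcripts, 14.5% and 10.0% of those of Fasn, and 4.28% and 1.72% of all outside transcripts.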

How the results depend on the processing

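With 1 section per genotype no value was tested, and no paired analysis was possible because each group has a single sample. The ratio of shares of chosen cells, 0.473 of Utx-cKO over WT, stayed below 1 under each of the 14 alternatives for which it was computed. It was 0.350 at a marker sum of at least 5, and from 0.345 to 0.580 with a strip left out. Genes at least 1.5 times higher in Utx-cKO numbered 9, but 22 at a marker sum of at least 2, 5 without chosen cells near sebocyte-marked cells, 3 in nuclei alone, 2 in cells thinned to 20 transcripts, 3 as mean counts per cell, 20 and 4 at minima of 50 and 200 counts, 16 with outside transcripts added and from 7 to 14 with a strip left out. Lower genes numbered 14, but 6 at a marker sum of at least 5, 3 in thinned cells, 30 as mean counts per cell, 22 and 7 at minima of 50 and 200 counts and from 12 to 26 with a strip left out. Thinning left 29 genes to compare, against 137. Genes at least 2 times higher than in other cells numbered 21, but 35 without the 10 most abundant genes, whose removal raises the level of the rest, and 11 in thinned cells. The median distance to a basal-marked cell in WT was 72.3 µm at a marker sum of at least 2 and 85.1 µm at 5 (69.8 to 92.8 µm with a strip left out), and in Utx-cKO 73.8 µm at 5 (55.8 to 95.6 µm). Of 21 named genes past 1.5-fold, Cryab, Klf4, Tfrc and Thbs2 stayed past it in each of 20 alternatives, and 5 changed sign in at least 1: with a strip left out Aspn (-1.79 to 0.43), C1qa (-1.15 to 0.051) and Igfbp3 (-0.61 to 2.04) and, at a marker sum of at least 5, Cers5 (-0.12) and Tmem45a (-0.17). The cause was not tested. Among the genes that stayed past 1.5-fold, the strips of Klf4, Tfrc and Thbs2 overlapped between the sections.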
